A study of Saccharomyces cerevisiae with 4 samples.

Results

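The 9 genes described here are the ammonium permease genes MEP1, MEP2 and MEP3, the general amino acid permease gene GAP1, and the nitrogen regulator genes GLN3, GAT1, DAL80, GZF3 and URE2 of budding yeast (Saccharomyces cerevisiae). They were taken by gene symbol from a table of 7126 genes, and all 9 were present and passed the filter on low values. The table gives RPKM, in which reads are scaled by gene length and library size, for 2 libraries labelled T4V and 2 labelled wild type (WT). The T4V strain carries a mutation in the C-terminal domain (CTD) of RNA polymerase II, the tail of heptad repeats on its largest subunit, in which threonine at position 4 is replaced by valine. By its title, the series links this threonine to transcription and to the remodelling of chromatin through the histone variant Htz1. Neither the culture medium nor the growth phase nor the parent strain is stated in the labels.

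Yeast cells take up ammonium through the Mep permeases and amino acids through Gap1 and more selective permeases. While a good nitrogen source lasts, the cytoplasmic protein Ure2 holds the activator Gln3 out of the nucleus, and genes for the use of poorer sources are kept low, which is called nitrogen catabolite repression. When nitrogen is poor, Gln3 and Gat1 enter the nucleus and bind GATA sequences upstream of their targets, while the related factors Dal80 and Gzf3 compete for the same sequences and repress. GAT1, DAL80 and GZF3 are themselves targets of this circuit.

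The GATA sequences that these factors read lie upstream of most of the 9 genes. They were searched as GATAAG, and as its core GATAA, on both strands of the 600 bases before each start codon in the R64 assembly, the release behind sacCer3. Each GATAAG contains a GATAA, and neighbouring matches may share a base. MEP2 held 7 GATAAG, MEP3 and GAP1 held 5 each, GAT1 held 4, DAL80 and GZF3 held 3 each, MEP1 held 2, GLN3 held 1 and URE2 held none. Of 5999 protein-coding genes with a full window, 26.8% held at least 1, 4.92% at least 2, 0.7% at least 3 and 0.117% at least 5. MEP2 was the 1 gene of the 5999 with 6 or more.

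The stretch from 201 to 500 bases before the start codon is printed for 5 genes. It holds all GATAAG of MEP2, MEP3, GAT1 and DAL80 and 4 of the 5 of GAP1. It also holds the 2 of MEP1 and the 1 of GLN3, whose sequences are not printed. The stretch was chosen after the positions were seen. Capitals mark GATAAG or GATAA, which read CTTATC or TTATC where they lie on the other strand, and each sequence runs 5′ to 3′ towards its gene. The regions are chrXIV:356953-357252, chrXI:514563-514862 and chrXI:506398-506697 on the plus strand, chrXVI:812654-812953 on the minus strand and chrVI:95466-95765 on the plus strand. Of 6000 genes with this window, 13.9% held at least 1 GATAAG there, 1.32% at least 2 and 0.35% at least 3. The MEP2 window overlaps the open reading frame YNL143C and the DAL80 window overlaps YKR032W.
MEP2: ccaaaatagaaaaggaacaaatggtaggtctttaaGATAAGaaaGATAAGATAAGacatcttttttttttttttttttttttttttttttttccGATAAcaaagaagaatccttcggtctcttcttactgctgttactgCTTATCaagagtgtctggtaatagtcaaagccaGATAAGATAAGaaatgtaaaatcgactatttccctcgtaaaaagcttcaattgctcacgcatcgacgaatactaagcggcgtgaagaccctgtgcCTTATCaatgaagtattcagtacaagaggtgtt
GAP1: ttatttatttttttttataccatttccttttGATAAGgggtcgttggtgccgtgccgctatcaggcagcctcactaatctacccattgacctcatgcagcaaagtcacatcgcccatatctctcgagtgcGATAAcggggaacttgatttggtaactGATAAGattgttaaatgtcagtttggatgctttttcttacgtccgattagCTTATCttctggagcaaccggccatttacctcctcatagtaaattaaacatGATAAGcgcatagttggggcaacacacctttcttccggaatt
DAL80: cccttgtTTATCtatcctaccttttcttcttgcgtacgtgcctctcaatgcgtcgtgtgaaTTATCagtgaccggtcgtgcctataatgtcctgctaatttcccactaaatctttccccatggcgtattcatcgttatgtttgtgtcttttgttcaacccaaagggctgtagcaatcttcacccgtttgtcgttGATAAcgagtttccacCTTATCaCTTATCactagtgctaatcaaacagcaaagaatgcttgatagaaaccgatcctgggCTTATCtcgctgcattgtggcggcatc
GAT1: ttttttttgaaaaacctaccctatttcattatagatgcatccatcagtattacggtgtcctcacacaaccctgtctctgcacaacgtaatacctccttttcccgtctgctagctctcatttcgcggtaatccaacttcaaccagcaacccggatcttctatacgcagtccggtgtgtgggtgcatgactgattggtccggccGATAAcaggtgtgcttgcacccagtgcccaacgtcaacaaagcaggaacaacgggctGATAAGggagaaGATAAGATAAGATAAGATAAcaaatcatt
MEP3: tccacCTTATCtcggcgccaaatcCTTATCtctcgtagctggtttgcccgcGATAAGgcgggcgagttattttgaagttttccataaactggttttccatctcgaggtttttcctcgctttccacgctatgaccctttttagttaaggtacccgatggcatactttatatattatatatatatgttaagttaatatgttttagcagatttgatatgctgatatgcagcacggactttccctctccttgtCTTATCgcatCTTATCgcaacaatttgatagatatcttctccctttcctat

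A match to these letters is a description of the reference genome and not a measured binding site. In MEP2 the sites formed a pair of clusters, at 446 to 465 and at 318 to 328 bases before the start codon, with 1 site between them and 1 nearer the gene. In GAT1, 3 overlapping GATAAG and a further GATAA formed an unbroken run, with the fourth GATAAG a few bases before it. The 3 GATAAG of GZF3 lay closer to the gene than the printed stretch, from 149 to 174 bases before the start codon.

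**Figure D1:**
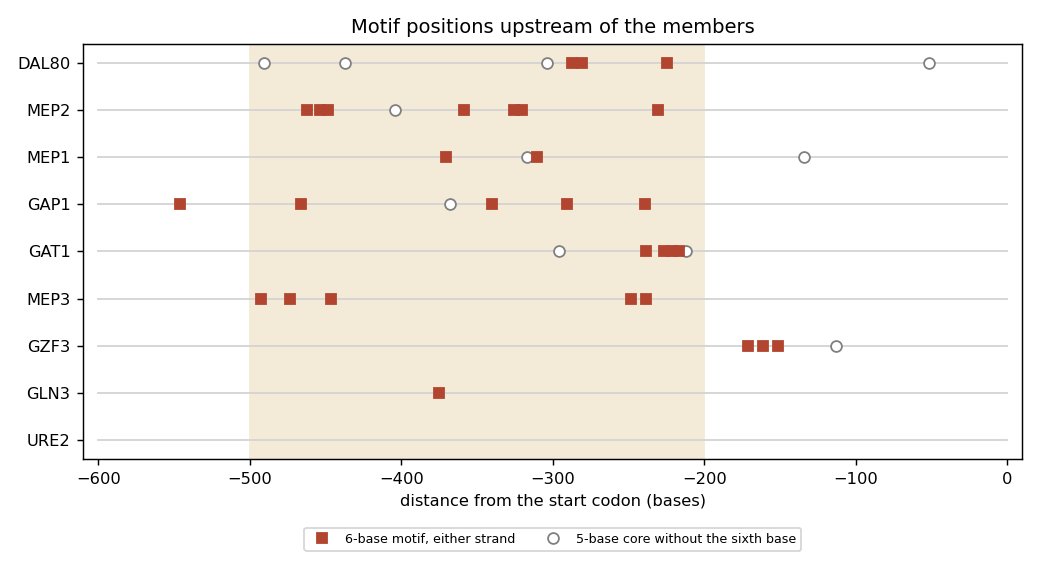
Positions of the 6-base motif (filled squares) and of its 5-base core alone (open circles) on either strand, by distance in bases from the start codon, for the 9 members ordered by their difference between T4V and WT. The shaded stretch is the one printed; MEP2 has 7 filled squares and URE2 has none.

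The libraries held 3354780 and 4258830 reads for T4V and 4063760 and 3653820 for WT, as recovered from the steps between low RPKM values. RPO21, the gene of the altered subunit, had 50.8 and 54.1 RPKM in T4V and 51.6 and 53.4 RPKM in WT, with a limma adjusted p of 0.987. RPKM per gene does not show the amino acid change, so the genotype of each library rests on its label. Each value is relative to the total of its library, so a change in RNA per cell and a change in the share of cells that express a gene cannot be told apart. The labels do not say whether the 2 libraries of a strain came from separate cultures, so p-values measure the spread between these libraries, which may be technical. In limma the variance of each gene is also drawn towards a trend over all genes tested. The SE, intervals and p-values of a gene therefore rest partly on the spread of other genes.

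All 9 genes had both T4V libraries above both WT libraries, and 6 of them rose by the test, which was limma on log2(RPKM + 1) across 5935 genes with a threshold of 0.05 on the Benjamini-Hochberg adjusted p. The 6 were MEP2, MEP1, GAP1, GAT1, DAL80 and GZF3. MEP3, GLN3 and URE2 did not pass. For comparison, 17.9% of all genes tested passed (11.7% upward in T4V, 6.25% downward), and 38.6% had both T4V libraries above both WT libraries. None of the 9 fell: limma found 0 lower, also 0 on unadjusted p at 0.05, and voom on recovered reads found 0. Over all genes tested, 699 of 5935 were lower on unadjusted p, and voom called 578 of 5578 lower. The median log2 fold change was 0.53 over the 9 genes and 0.07 over all genes tested.

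**Figure D2:**
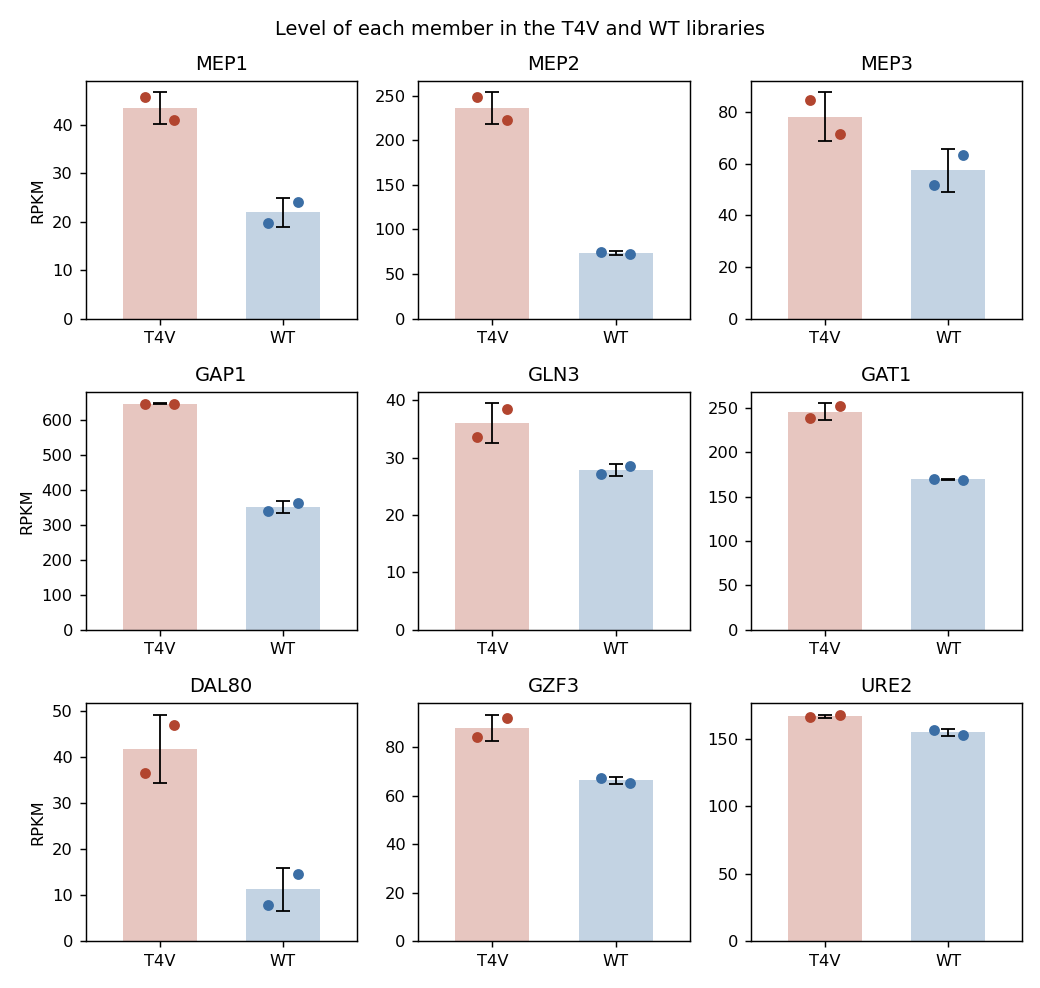
RPKM of each of the 9 genes in the T4V libraries (left) and the WT libraries (right); points are libraries, bars are means and lines are ± SD, with n = 2 each. In each panel both T4V points lie above both WT points, by the largest factors in DAL80 and MEP2.

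Among the permeases, MEP2 differed most. MEP2 (YNL142W, chrXIV:357453-358952, plus strand) encodes the ammonium permease of highest affinity, which also signals for filamentous growth when ammonium is scarce. It had 248.6 and 223 RPKM in the T4V libraries and 75.2 and 72.4 RPKM in the WT libraries. Both T4V libraries stood near 3 times the WT level, far outside the spread of either strain. It rose by a log2 fold change of 1.66 ± 0.08 (SE), with a 95% interval of 1.46 to 1.86 and a limma adjusted p of 0.000168. The reads behind it were 2676 in T4V and 856 in WT, a ratio of 3.17 after correction for library size with an exact binomial 95% interval of 2.93 to 3.43. By log2 fold change MEP2 ranked 65 among the 5935 genes.

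MEP1 (YGR121C, chrVII:731449-732927, minus strand) encodes an ammonium permease of lower affinity and higher capacity. It had 45.7 and 41.1 RPKM in T4V and 19.8 and 24.1 RPKM in WT, so the T4V level was about double and the groups did not overlap. It rose by 0.96 ± 0.13 (SE) on the log2 scale, with a 95% interval of 0.64 to 1.28 and a limma adjusted p of 0.00576. The reads were 486 in T4V and 249 in WT, a ratio of 1.98 whose interval ran from 1.69 to 2.31.

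MEP3 (YPR138C, chrXVI:810984-812453, minus strand) encodes the ammonium permease of lowest affinity. It had 85.0 and 71.5 RPKM in T4V and 51.7 and 63.3 RPKM in WT. The nearest libraries of the strains, T4V library B and WT library B, lay closer to each other than either did to its replicate. The log2 fold change was 0.44 ± 0.13 (SE) with a 95% interval of 0.13 to 0.75, and the limma adjusted p of 0.0639 missed the threshold. Voom called it, with an adjusted p of 0.00187, and limma did without WT library B, with a log2 fold change of 0.58 and an adjusted p of 0.0401.

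GAP1 (YKR039W, chrXI:515063-516871, plus strand) encodes the general amino acid permease, which carries nearly all amino acids. It was the most abundant of the 9 genes per length, with 647.2 and 648.2 RPKM in T4V and 340.3 and 364 RPKM in WT. The T4V libraries were nearly equal and both lay well above WT. It rose by 0.88 ± 0.06 (SE), with a 95% interval of 0.73 to 1.03 and a limma adjusted p of 0.000635. With 8922 reads in T4V and 4908 in WT it had the narrowest counting interval of the 9, a ratio of 1.84 with bounds of 1.78 and 1.91.

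Both the sum and the proportions of the Mep genes differed between the strains. The summed RPKM of MEP1, MEP2 and MEP3 was 379 and 336 in the T4V libraries and 147 and 159.8 in the WT libraries. MEP2 took 65.5% and 66.5% of that sum in T4V and 51.3% and 45.3% in WT. MEP3 took 22.4% and 21.3% in T4V and 35.2% and 39.6% in WT, and MEP1 took 12.1% and 12.2% in T4V and 13.5% and 15.1% in WT. The ratio of MEP2 to MEP3 was 2.93 and 3.12 in T4V and 1.46 and 1.14 in WT. These shares are descriptions, since 2 libraries against 2 allow no exact permutation p below 0.33.

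Whether reads of the 3 MEP genes could be told apart was looked at by sequence alone. Their coding sequences were identical at 69.6% of aligned bases between MEP1 and MEP3, 53.5% between MEP1 and MEP2 and 53.7% between MEP2 and MEP3. The longest stretch shared exactly was 20 bases, between MEP1 and MEP3. No stretch of 36 bases from the coding sequence of any of the 9 genes occurred elsewhere in the R64 genome, on either strand; the read length is not stated in the labels.

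**Figure D3:**
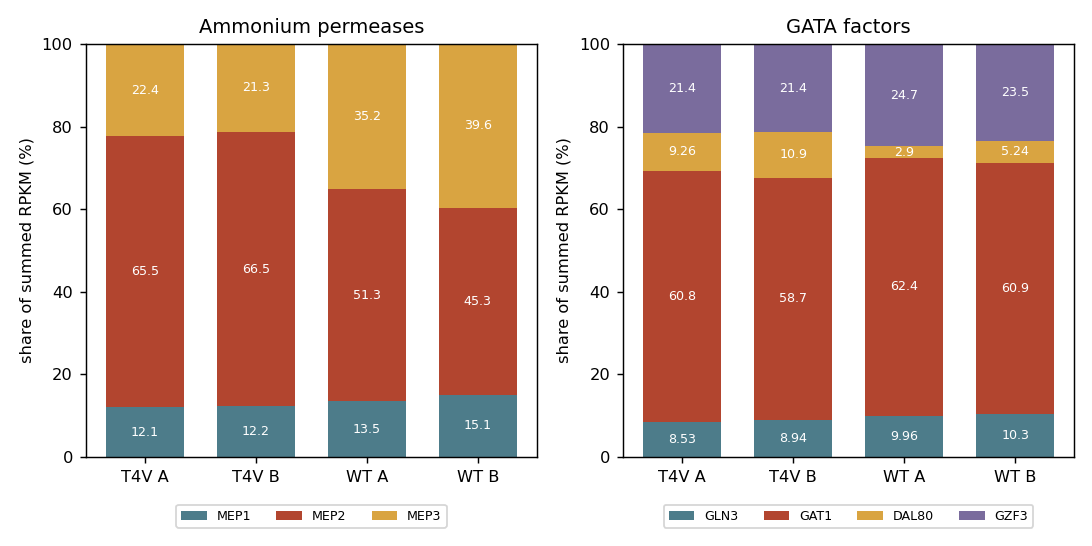
Share of summed RPKM, in percent, taken by each ammonium permease gene (left) and each GATA factor gene (right) in the T4V libraries A and B and the WT libraries A and B. MEP2 takes 65.5% and 66.5% in T4V and 51.3% and 45.3% in WT, and DAL80 takes 9.26% and 10.9% in T4V and 2.9% and 5.24% in WT.

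The activator genes are GAT1 and GLN3. GAT1 (YFL021W, chrVI:95966-97498, plus strand) encodes a GATA activator whose own gene is under nitrogen catabolite repression. It had 239 and 252 RPKM in T4V and 169.98 and 169 RPKM in WT, with the WT libraries nearly equal and both T4V libraries above them. It rose by 0.53 ± 0.07 (SE), with a 95% interval of 0.37 to 0.69 and a limma adjusted p of 0.00417.

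GLN3 (YER040W, chrV:229795-231987, plus strand) encodes the other activator, which is controlled mainly through its location in the cell. It had 33.6 and 38.4 RPKM in T4V and 27.1 and 28.6 RPKM in WT. The groups did not overlap, but the gap between them was about as wide as the spread of the T4V libraries. The log2 fold change was 0.36 ± 0.12 (SE) with a 95% interval of 0.08 to 0.64 and a limma adjusted p of 0.0838. Voom called it, at 0.38 with an adjusted p of 0.0107.

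DAL80 had the largest log2 fold change of the 9 genes with all 4 libraries. DAL80 (YKR034W, chrXI:506898-507707, plus strand) encodes a GATA factor that represses when nitrogen is poor and is itself induced by the activators. It had 36.4 and 46.9 RPKM in T4V and 7.89 and 14.5 RPKM in WT. WT library B stood well above WT library A, the widest relative spread within a strain among the 9 genes, and still lay below both T4V libraries. It rose by 1.85 ± 0.27 (SE), with a 95% interval of 1.21 to 2.49 and a limma adjusted p of 0.00657, and ranked 50 of 5935 by log2 fold change. The reads were 99 and 162 in T4V and 26 and 43 in WT, the fewest of the 9 genes, and gave a ratio of 3.83 with a counting interval of 2.93 to 5.07. The call was lost without the variance trend, with an adjusted p of 0.0546. Its log2 fold change ran from 1.45 without WT library A to 2.25 without WT library B. MEP2 was the larger without WT library A, at 1.69, and without T4V library B, at 1.74 against 1.67 for DAL80.

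GZF3 (YJL110C, chrX:209922-211577, minus strand) encodes the other GATA repressor. It had 84.4 and 92.0 RPKM in T4V and 67.4 and 65.3 RPKM in WT, with no overlap. It rose by 0.40 ± 0.09 (SE), with a 95% interval of 0.20 to 0.61 and a limma adjusted p of 0.0223. Quantile normalization ended the call (0.34, adjusted p = 0.0524), as did a fit without the variance trend (adjusted p = 0.0777) and the omission of any 1 library.

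URE2 (YNL229C, chrXIV:219137-220201, minus strand) encodes the cytoplasmic partner of Gln3, known also for its prion form. It had 166 and 168 RPKM in T4V and 157 and 153 RPKM in WT. The strains lay close together relative to the other members. The log2 fold change was 0.11 ± 0.07 (SE), with a 95% interval of -0.05 to 0.27 and a limma adjusted p of 0.319, and it ranked 2627 of 5935. No alternative called it, with log2 fold changes of 0.02 to 0.13 over all of them.

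Within the GATA factors, the sum over GLN3, GAT1, DAL80 and GZF3 was 394 and 429.6 RPKM in T4V and 272 and 277 RPKM in WT. DAL80 took 9.26% and 10.9% of it in T4V and 2.90% and 5.24% in WT. GAT1 held the largest share in both strains, with 60.8% and 58.7% in T4V and 62.4% and 60.9% in WT. The activators together stood at 2.26 and 2.09 times the repressors in T4V and at 2.62 and 2.48 times in WT. RPKM of GLN3 was 0.202 and 0.229 of that of URE2 in T4V and 0.173 and 0.187 in WT.

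**Figure D4:**
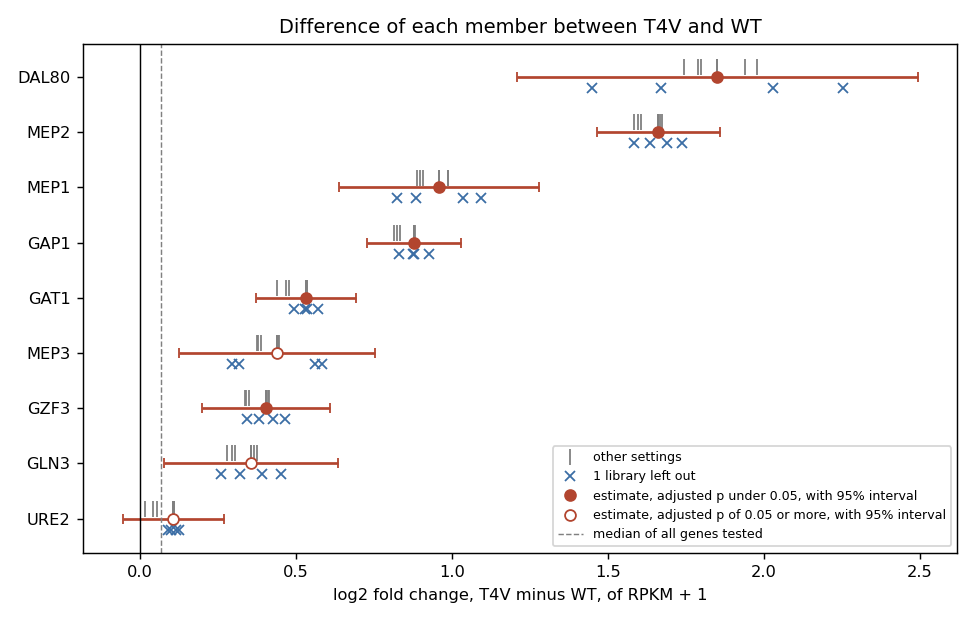
Log2 fold change of RPKM + 1, T4V minus WT, of each of the 9 genes with its 95% interval; filled points passed the limma test, ticks are other settings, crosses leave out 1 library and the dashed line is the median of all genes tested. All points lie above 0, from 0.11 for URE2 to 1.85 for DAL80.

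The order of the genes by RPKM, which is a level per length, differed between the strains. In T4V it ran GAP1, GAT1, MEP2, URE2, GZF3, MEP3, MEP1, DAL80 and GLN3. There the libraries of GAT1 and MEP2 overlapped, as did those of GZF3 and MEP3, of MEP1 and DAL80, and of DAL80 and GLN3. In WT it ran GAP1, GAT1, URE2, MEP2, GZF3, MEP3, GLN3, MEP1 and DAL80, and no neighbours overlapped. MEP2 thus stood above URE2 in both T4V libraries and below it in both WT libraries, and MEP1 likewise stood above GLN3 in T4V and below it in WT.

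Most calls were lost when either T4V library was left out, with the remaining one then assumed to vary like WT. The members kept their direction in those fits. GAP1 stood at a log2 fold change of 0.88 in both, and DAL80 at 2.03 without T4V library A and 1.67 without T4V library B. Without T4V library A, and likewise without T4V library B, MEP2 alone of the 9 genes was called, with adjusted p of 0.0418 or less over all 4 omissions, while 16 and 27 genes were called in the whole table. With no filter on low values MEP2 was again the 1 member called, only just under the threshold, with a limma adjusted p of 0.0499991. GAP1 and GAT1 narrowly missed it there, with limma adjusted p of 0.0524 and 0.0555. Without WT library A 5 of the 9 were called and without WT library B 6 were.

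The nearest annotated gene on each side of the members was looked up. Of 13 such neighbours tested, 1 rose and 1 fell by limma, and 4 had a log2 fold change above 0 and 9 one below 0. Among all 5935 genes tested, 11.7% rose and 6.25% fell, and 3525 had a log2 fold change above 0. Whether the neighbours differ from these shares was not tested. The open reading frame YNL143C starts upstream of MEP2 on the opposite strand, 266 bases away, and it also rose, with 15.9 and 15.5 RPKM in T4V and 9.38 and 9.75 RPKM in WT (log2 fold change 0.66, limma adjusted p = 0.0317). That call was lost after quantile normalization, with voom, which gave an adjusted p of 0.176, and without any 1 library. Upstream of DAL80, YKR032W had 5.68 and 1.49 RPKM in T4V and was listed at 0 in both WT libraries, with an adjusted p of 0.0775. Upstream of GLN3, YER039C-A had 2.72 and 5.36 RPKM in T4V and 7.86 and 12.5 RPKM in WT, with a log2 fold change of -1.17 and a limma adjusted p of 0.0633. JJJ1, upstream of URE2, was lower in T4V, at 21.9 and 20.1 RPKM against 30.4 and 32.7 RPKM in WT (log2 fold change -0.57, limma adjusted p = 0.0214), a call that was lost without any 1 library. No annotated gene of the RefSeq annotation overlapped any of the 9 members; genes of the table without coordinates there were not looked at. The 4 neighbours named were chosen after their values were seen.

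Other genes of the same circuit were counted from lists written with earlier results of these data known. Of 20 genes for the use of nitrogen sources under GATA control, 11 rose and 0 fell, against 11.7% higher and 6.25% lower among all genes tested, and their median log2 fold change was 0.46. By voom 14 rose and 0 fell, against 1000 higher and 578 lower among the 5578 genes it tested. On unadjusted limma p at 0.05, 14 were higher and 0 lower, against 1298 higher and 699 lower of 5935. Without the variance trend 7 of the 20 rose, against 265 higher and 134 lower of 5935. The largest rises on the list were DAL1, which opens the allantoin ring, at 2.05, and PUT1, proline oxidase, at 1.31. DUR1,2, urea amidolyase, at 1.03, and DUR3, a urea permease, at 0.97, came next. DUR3 lost its call without WT library B, with an adjusted p of 0.0692. DAL1 had 6.25 and 8.49 RPKM in T4V and 1.24 and 0.791 RPKM in WT, so its level stayed low in both strains. When either T4V library was left out, limma called 0 genes of this list and of each list below.

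Of 5 genes listed under ammonium assimilation, 3 rose and 0 fell, against 11.7% higher and 6.25% lower among all genes tested. The list includes GDH2, which works in the other direction. GDH2, the glutamate dehydrogenase that releases ammonium, had 82.4 and 79.2 RPKM in T4V and 44.6 and 42.1 RPKM in WT, which is 0.88 on the log2 scale (limma adjusted p = 0.00192). GLT1, glutamate synthase, rose by 0.59 and GLN1, glutamine synthetase, by 0.45, and GDH2 and GLN1 also stand on the list of 20. GLN1 lost its call without the variance trend, with an adjusted p of 0.0551. GDH1, the main ammonium-fixing dehydrogenase, named after its values were seen, had 1913 and 1950.5 RPKM in T4V and 2070.4 and 2076 RPKM in WT, which is -0.10 on the log2 scale (limma adjusted p = 0.234).

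The machinery around the circuit is read against the 17.9% of all genes tested that limma called, 11.7% upward and 6.25% downward. On unadjusted p at 0.05, 1298 of all 5935 genes were higher and 699 lower. Voom called 1000 higher and 578 lower of 5578. Of 12 genes for the trafficking and phosphorylation of permeases, limma called NPR1 alone, and 3 were higher on unadjusted p at 0.05 and 3 by voom. NPR1, a kinase that keeps Mep2 and Gap1 active, had 175 and 169 RPKM in T4V and 119 and 135 RPKM in WT, and rose by 0.44 with a limma adjusted p of 0.0176. The median of that list was 0.13. Of 17 genes of the TORC1 kinase and its nitrogen inputs, SLM4, a subunit of the complex that holds the Gtr proteins on the vacuole, was the only one called, at -0.51 by limma with an adjusted p of 0.0178, and the median was -0.02. Voom called 1 higher and 1 lower there.

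Among 14 genes of the Tap42 phosphatase branch limma called 0. On unadjusted p at 0.05, 4 were higher and 1 lower, against 1298 higher and 699 lower of all 5935 genes. Voom called 1 in each direction, against 1000 higher and 578 lower of 5578. With limma 1 of the 14 was called lower after median-of-ratios scaling, after quantile normalization and after the rescaled total. That gene was not SAP4, which had limma adjusted p of 0.225, 0.105 and 0.233 in those settings. The largest value there was -0.38 for SAP4, a partner of the phosphatase Sit4, with a limma adjusted p of 0.279, and the median was 0.06. Of 13 genes of filamentous growth signalling, SOK2, a repressor of filament formation, fell by 0.52 with a limma adjusted p of 0.0463, and the median was 0.09. Voom called 1 higher and 1 lower on that list. Its call was lost with a pseudocount of 0.1, without the filter, without the variance trend and without any library except WT library B. FLO11, listed as MUC1 and named after its values were seen, the cell wall protein of filaments, had 4.87 and 6.35 RPKM in T4V and 2.70 and 1.67 RPKM in WT, which is 1.06 on the log2 scale (limma adjusted p = 0.0756).

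Of 8 genes listed as regulators of nitrogen pathways, ARG82 and UGA3 rose by limma, at 0.82 and 0.51, and the median of the list was -0.10. That is 25% of the list, near the 17.9% called among all genes tested. UGA3, which activates the genes for the use of GABA, had 97.1 and 92.1 RPKM in T4V and 63.7 and 68.6 RPKM in WT (limma adjusted p = 0.0105). ARG82, an inositol polyphosphate kinase that also acts on arginine genes, had 46.0 and 41.8 RPKM in T4V and 29.9 and 19.98 RPKM in WT (limma adjusted p = 0.0286). Limma called 0 of the 8 lower, 3 were lower and 3 higher on unadjusted p at 0.05, and voom called 1 lower and 3 higher. Over all genes tested, 699 of 5935 were lower and 1298 higher on unadjusted p. Voom called 578 lower and 1000 higher of 5578. Without the variance trend NPR1, SLM4, ARG82 and UGA3 lost their calls, and NPR1 and SLM4 did so without WT library A. Without WT library B ARG82 stood at 0.54, with a limma adjusted p of 0.0522.

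**Figure D5:**
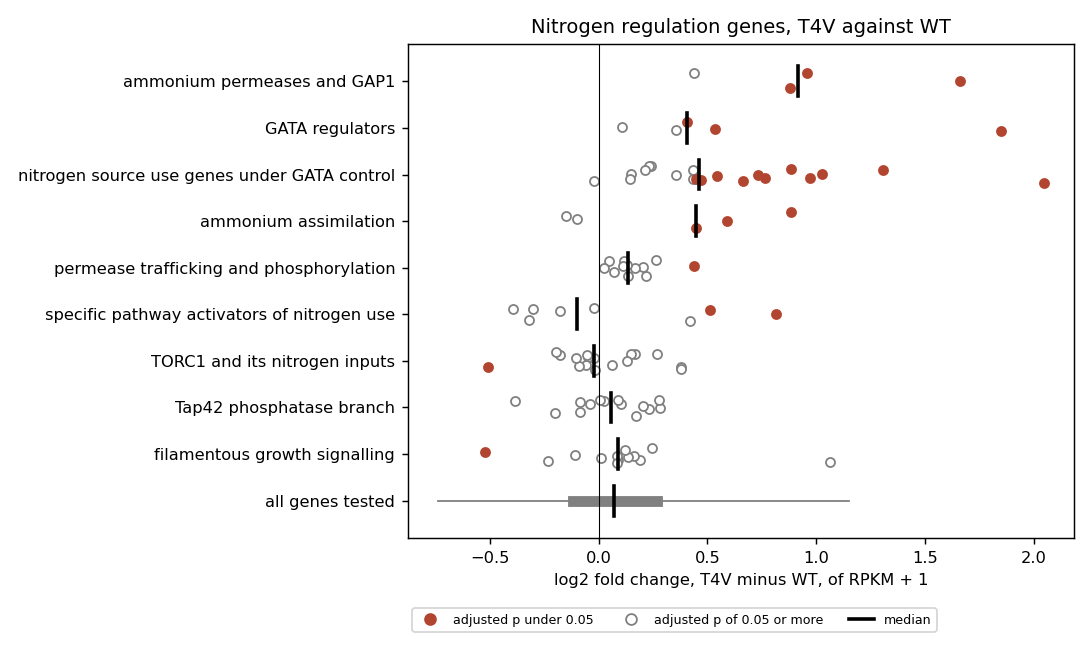
Log2 fold change of RPKM + 1, T4V minus WT, of every tested gene of 9 lists, with filled points for genes that passed the limma test and black lines for medians; the bottom row gives the middle 50% (thick) and 95% (thin) of all genes tested. The permease and GAP1 list has a median of 0.92, the GATA regulator list 0.40 and all genes tested 0.07.

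The genes with the most similar profile were taken by Euclidean distance over the 4 libraries, on log2(RPKM + 1) centred on the WT mean. For MEP2 they were VTC4, which makes polyphosphate, at a distance of 0.07, MFA1, a gene of the mating pheromone a-factor, at 0.08, and USV1, a zinc finger factor, at 0.14. VTC4 had 388 and 349 RPKM in T4V and 113 and 112 RPKM in WT. For GAP1 they were SNG1 at 0.03, the polyubiquitin gene UBI4 at 0.07 and the purine synthesis gene ADE2 at 0.08. For DAL80 the nearest genes lay farther off, the small nucleolar RNAs SNR32 and SNR4 at 0.56 and 0.61 and PAU13 at 0.61. The libraries were made from poly(A) RNA, so values of small nucleolar RNAs may not give their full level. PAU13 was listed at 0 in both WT libraries and had 2.46 and 2.59 RPKM in T4V, with a limma adjusted p of 0.0649. The likeness is over 4 libraries and says nothing of shared function.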

How the data were processed

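Poly(A) RNA was sequenced as strand-specific libraries on an Illumina Genome Analyzer IIx, per the labels' protocols. Reads were placed with Bowtie2 on sacCer3, per the submitters' processing notes; the version, counter, annotation and strand setting are not stated there. The deposited values are RPKM as made by the authors, 1 column per library. Column names gave the genotype, a digit and a letter. The digit is the same for both libraries of a strain and differs between the strains, and its meaning is not stated. Neither digit nor letter is given as a replicate number, so libraries are called A and B. Every column of values in the table was used.

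Genes with at least 1 RPKM in at least 2 libraries were tested with limma 3.58.1 (R 4.3.3), trended variances, 2-sided, on log2(RPKM + 1) without further scaling, over all 5935 genes. Fold changes are T4V minus WT on that scale and understate changes of low genes. Reads were recovered from RPKM and the exonic length in RefSeq R64; 99.4% to 99.6% of low values came within 0.1 of a whole read. For a gene of 1 kb, a single read equals 0.235 to 0.298 RPKM. Read intervals cover counting error only, since PCR copies without molecular identifiers are not independent molecules. The fit was tested on simulated data with normal noise of the same SD for every gene. That test cannot check the variance trend or the filter on these data. Other steps used Python 3.11.15 with matplotlib 3.10.9, numpy 2.4.6, pandas 2.3.3 and Biopython 1.88. Sequences come from the RefSeq R64 genome; protein sequences were not used here.

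The members and lists were chosen with earlier results of these data known. Named genes were the 9 members, RPO21, up to 4 called genes with the largest change per list or, with none called, the 1 largest, and the 3 nearest profiles of MEP2, DAL80 and GAP1. Those profiles were sought among genes outside the 9 with a name beyond the systematic one. Alternatives changed the pseudocount, filter, scaling, variance model, threshold and count model, and left out each library.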

Additional observations from a re-analysis of the deposited data

How the results depend on the processing

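No member changed direction under any alternative run, and MEP2 passed the threshold under all of them. With no filter on low values it passed only just, with a limma adjusted p of 0.0499991. Of the 9 members, 6 were called, 4 to 8 under a pseudocount of 0.1, an RPKM of at least 10, each other scaling, other variance models, a threshold of 0.1 and voom. With no filter on low values, which added 1191 genes near 0, 1 member and 49 of 7126 genes were called. All genes called numbered 1063, and 399 without the variance trend and 1578 with voom. Leaving out 1 library gave 1 to 6 members called and 16 to 746 genes, with fewest when a T4V library was left out; the remaining T4V library was then assumed to vary like WT. Calls were 692 higher and 371 lower, but 511 and 503 after median-of-ratios scaling, 449 and 443 after quantile normalization and 528 and 472 after the rescaled total. No paired analysis was possible because the columns carry letters that nothing ties to the replicate numbers of the labels. DAL80, with 26 reads in 1 WT library, is the member most limited by depth.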
